A study of Homo sapiens with 4 samples.

Results

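Replication-independent histone variants are, as a class, transcribed throughout the cell cycle with polyadenylated mRNAs, as distinct from the S phase histones. H2AFX, described below, also gives an mRNA without a poly(A) tail. The set holds 10 genes chosen by name, with the centromeric variant CENPA left out, from the 23615 genes of the deposited table. The members described are H2AFX, H2AFZ, H2AFV, H2AFY, H2AFY2, H2AFJ, H3F3A, H3F3B and H1FX. They were measured by RNA-seq in K562, an established leukaemia cell line of human origin with erythroid features, after 3 h in 2 groups. The clofarabine group had 5 µM clofarabine, a deoxyadenosine analogue that inhibits ribonucleotide reductase and DNA polymerases, in 0.005% DMSO (2 samples, here C0 and C1). The control group had DMSO, the solvent of the drug, with no concentration recorded for it (2 samples, V0 and V1). All samples share the K562 line and RPMI medium with serum. The table names its conditions only C and V, read here as clofarabine and vehicle. No label spells the letters out, and the opposite reading would turn every direction round. Nothing in the labels tells whether the 2 samples of a group were separate cultures, so the p-values rest on a spread that may be technical.

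Nucleosomes wrap DNA around an octamer of the core histones H2A, H2B, H3 and H4, and the linker histone H1 binds the DNA between them. Most histone protein is made in S phase from clustered genes whose mRNAs end in a stem-loop and not in a poly(A) tail. The variants are made largely outside that programme, although H2AFX also gives a stem-loop mRNA. Dedicated chaperones and remodelling complexes place variants in chromatin. H2A.X is phosphorylated around DNA breaks and stalled forks, H2A.Z marks promoters and enhancers, H3.3 fills active chromatin, and macroH2A carries a large globular domain found mostly in silent chromatin.

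Estimated fragments summed to between 8370550 and 23888755 per library, and K562 identity was checked on its markers. The fetal and embryonic globin genes HBG1, HBG2 and HBE1 had between 23278 and 370234 fragments in every library, while the T cell gene CD3E, the fibroblast gene COL1A1 and the hepatocyte gene ALB had between 0 and 23. As a sum, the variants held a similar share of the fragments in all libraries. Their 10 rows together took 0.213% of the fragments in V0 and 0.214% in V1, against 0.212% in C0 and 0.217% in C1. This sum does not describe single members, which moved in both directions, and leaves out the pseudogene H3F3AP4, described below.

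After 3 h of clofarabine the transcripts of H1FX and H2AFX fell, and no other member was called. H1FX, which encodes the linker histone H1.X, fell by 39.9% (95% interval of the change −47.0% to −31.8%) and H2AFX fell by 21.3% (−28.8% to −13.0%), each with n = 2 per group. The other H2A and H3 variants with ample fragments, H2AFV, H2AFY and H3F3B, had changes within 2.05% of no change. H2AFZ, the most abundant of the H2A variants, stood 18.9% higher but was not called. Of the 10 members, 7 passed the filter on low counts. Of these 7, 2 were called lower and 0 higher by edgeR's quasi-likelihood test (Benjamini-Hochberg adjusted p under 0.05 over all 11761 tested genes), where 1.03% of all tested genes were called lower and 1.54% higher. DESeq2 and limma-voom also called 0 members higher, and H2AFZ was the member with a positive change at an unadjusted p under 0.05 (edgeR unadjusted p = 0.00451). The median log2 fold change of the 7 was 0.0099, beside 0.0020 over all tested genes. The 7 include H3F3A, whose own row cannot be read, as described below, so this median partly rests on it. In RNA from a whole culture, fewer cells in which a gene is active and less RNA per cell cannot be told apart.

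**Figure D1:**
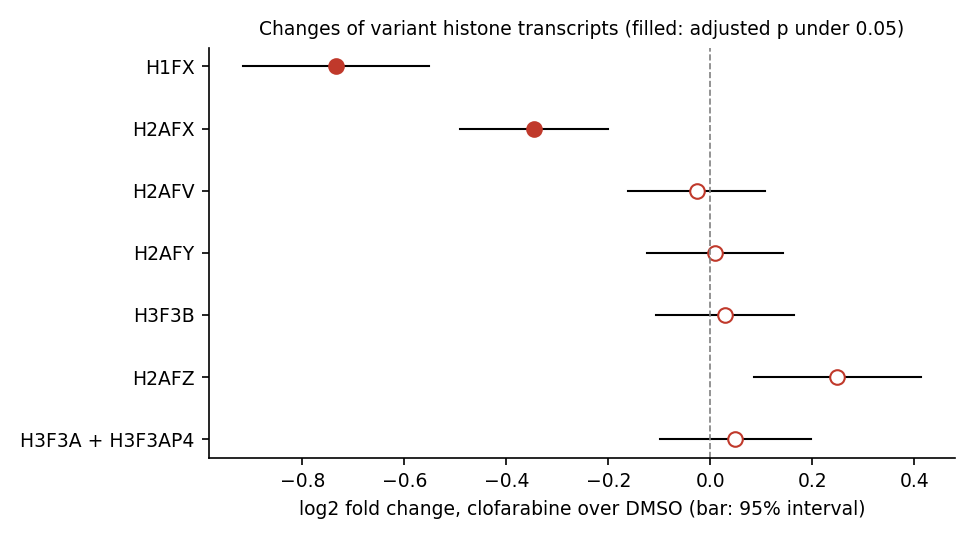
log2 fold changes of clofarabine over DMSO (x axis, log2 units) for the 6 variant histone genes with ample fragments and for H3F3A summed with its pseudogene H3F3AP4, with 95% intervals as bars from edgeR (n = 2 per group). The filled points of H1FX at −0.73 and H2AFX at −0.35 mark adjusted p-values under 0.05, and the intervals of H2AFV, H2AFY, H3F3B and the H3F3A sum span 0.

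The sequences before the start sites of 4 members are shown because they include both genes that fell and, beside them, the H2A.Z pair, neither of which was called. They are the 170 bases before the start in RefSeq (GRCh38.p14, a later build than the hg19 of the counts), 5′ to 3′ on the gene's strand. Capitals mark matches on either strand to CCAAT (the CCAAT box), TATAAA (the TATA box), TTTGAA (the cell cycle homology region, CHR), AAACACA (the H1 box) and TTTNNCGC (an E2F-like motif), and no matches overlap in these stretches.
H2AFX (chr11:119095466-119095635, minus strand): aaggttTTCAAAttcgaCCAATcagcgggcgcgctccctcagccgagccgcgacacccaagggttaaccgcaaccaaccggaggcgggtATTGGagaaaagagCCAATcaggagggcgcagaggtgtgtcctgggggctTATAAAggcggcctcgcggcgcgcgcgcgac
H1FX (chr3:129316287-129316456, minus strand): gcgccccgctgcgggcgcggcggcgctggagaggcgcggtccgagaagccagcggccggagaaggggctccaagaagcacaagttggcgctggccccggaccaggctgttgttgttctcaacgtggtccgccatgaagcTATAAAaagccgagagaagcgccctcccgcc
H2AFZ (chr4:99950276-99950445, minus strand): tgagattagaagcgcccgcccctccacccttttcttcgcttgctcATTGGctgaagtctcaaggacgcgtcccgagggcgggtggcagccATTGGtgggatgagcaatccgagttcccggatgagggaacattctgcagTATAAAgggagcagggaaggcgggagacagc
H2AFV (chr7:44848088-44848257, minus strand): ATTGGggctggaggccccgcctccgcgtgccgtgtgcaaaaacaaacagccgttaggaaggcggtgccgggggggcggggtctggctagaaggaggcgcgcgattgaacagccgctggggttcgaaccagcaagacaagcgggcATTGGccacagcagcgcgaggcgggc

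The 2 genes that fell do not share these motifs beyond a TATA box, which both have 31 bases before the start, as H2AFZ does. In the full windows of 300 bases (250 before the start and 50 after it), H2AFX held 4 CCAAT boxes and 1 CHR match, while H1FX held neither. H2AFZ, which did not fall, held 3 CCAAT boxes and 1 CHR match, the latter just after its start. H2AFV held 4 CCAAT boxes and no TATA box or CHR match. RefSeq's table had windows for 9 members (13 windows in all). CCAAT stood in at least 1 window of 7 of these 9 members, TATAAA in 4, TTTGAA in 2, TTTNNCGC in 2 and AAACACA in 1. Over all 35116 windows of the table the shares were 34.6% for CCAAT, 11.5% for TATAAA, 15.2% for TTTGAA, 6.89% for TTTNNCGC and 5.64% for AAACACA. These shares are per window, while the counts above are per member and some members have several windows. They cannot be compared directly. A match describes the letters and is no evidence of binding.

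H1FX gave the clearest difference. Its level, in CPM (fragments scaled by the TMM-adjusted library size), was 102 in V0 and 125 in V1, against 70.8 in C0 and 66.1 in C1. Both clofarabine libraries lay below both DMSO libraries, and the DMSO libraries differed more from each other than the treated ones did. The group means were 113 ± 16.1 CPM (SD, n = 2) in DMSO and 68.5 ± 3.35 in clofarabine. This is a log2 fold change of −0.73 with an SE of 0.088 (edgeR adjusted p = 1.6e-05). H1.X is a divergent linker histone whose gene stands alone outside the histone clusters. Without V1, the higher DMSO library, the log2 fold change was −0.58 (edgeR adjusted p = 4.4e-05), and H1FX was called under each of the 20 alternatives (adjusted p from 4.8e-22 to 0.0295). The opposite strand carries the antisense gene H1FX-AS1, which had 1 to 8 fragments per library. None of the 50-base stretches of the H1FX transcripts in GENCODE 29 occurs in a transcript of another gene.

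The replication-dependent linker genes, HIST1H1A to HIST1H1E, are of the same family as H1FX. Of these 5, 4 were tested. By edgeR, DESeq2 (which gave no adjusted p for 3 of them) and limma-voom 0 were called in either direction, and 0 had an unadjusted p under 0.05, with log2 fold changes from −0.66 to −0.057 (median −0.34). Whether H1FX differed from them was not tested, nor how fully the libraries captured mRNAs without a poly(A) tail.

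H2AFX, which encodes H2A.X, stood at 176 CPM in V0 and 193 in V1, against 150 in C0 and 142 in C1. The groups did not overlap, and the nearest libraries, V0 and C0, were at 95.5% and 81.0% of the DMSO mean. Means were 185 ± 11.8 CPM in DMSO and 146 ± 5.59 in clofarabine (SD, n = 2), which differ by −0.35 on the log2 scale with an SE of 0.070 (edgeR adjusted p = 0.00664). The H2AFX gene is known to give both a stem-loop mRNA and a longer polyadenylated one, and the gene-level values do not separate them. The call was lost without V1 (log2 fold change −0.28, edgeR adjusted p = 0.254) and on the log2(FPKM + 1) scale (limma adjusted p = 0.104). H2AFX and H1FX both lie in the second shortest of 10 classes of transcript length, whose median log2 fold change was 0.031, and both falls remained called once a trend on length was removed (−0.36, edgeR adjusted p = 6.7e-05 for H2AFX and −0.76, edgeR adjusted p = 1.8e-10 for H1FX).

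**Figure D2:**
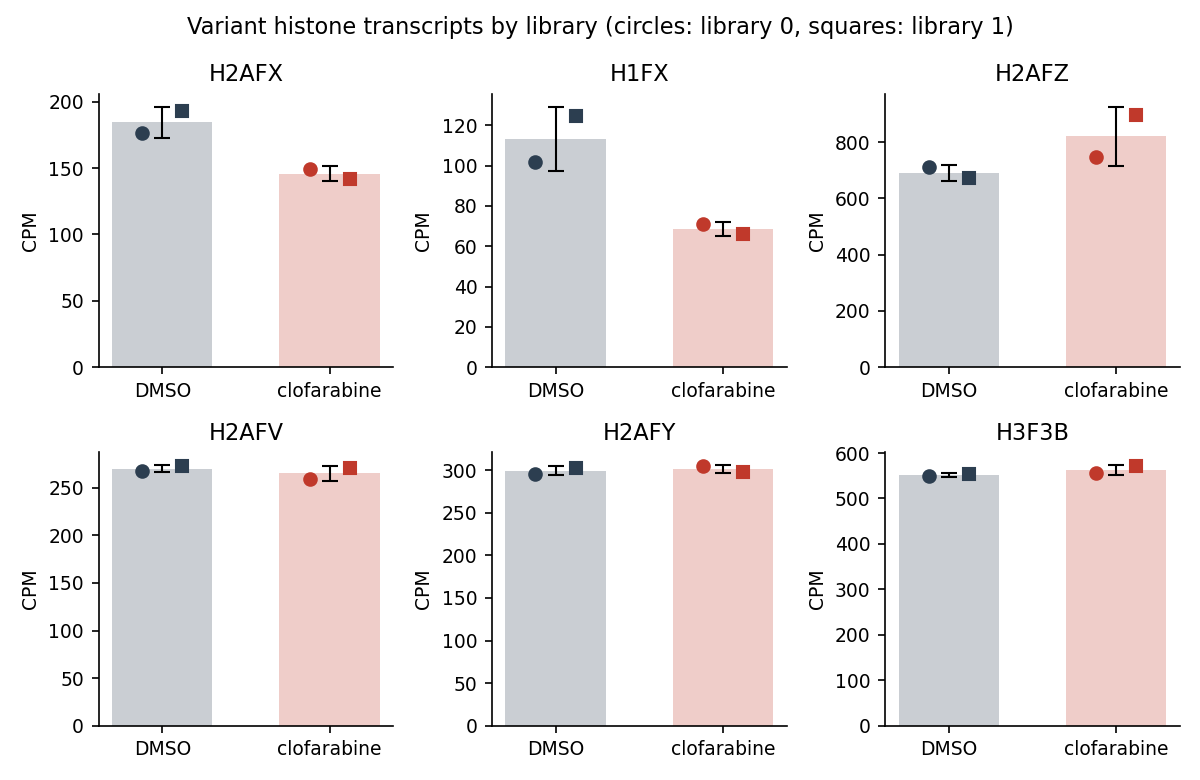
Levels in CPM (y axes from 0) of 6 variant histone genes in DMSO and clofarabine, with bars for group means, error bars for the SD of 2 libraries and points for each library (circles library 0, squares library 1). The clofarabine points of H1FX (66.1 and 70.8) and H2AFX (142 and 150) lie below both DMSO points, and those of H2AFZ above them. For H2AFV and H2AFY the ranges of the groups overlap.

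Neither H2A.Z gene was called. H2AFZ and H2AFV encode H2A.Z.1 and H2A.Z.2, proteins that differ at only a few residues and are placed by the same SRCAP and p400 remodelling complexes. H2AFZ stood at 712 CPM in V0 and 672 in V1, against 747 in C0 and 896 in C1. Both clofarabine libraries were above both DMSO libraries, but C0 was at 108% of the DMSO mean, close to V0 at 103%, while C1 was at 130%. The log2 fold change was 0.25 (SE 0.079, edgeR adjusted p = 0.109). It was 0.37 without C0 (edgeR adjusted p = 1.9e-07), 0.11 without C1 (edgeR adjusted p = 0.431), and called with no filter on low counts (edgeR adjusted p = 0.00869). H2AFZ is in the shortest class of transcripts, in which 6.63% of genes were called higher. The median of that class was 0.16 on the log2 scale above the DMSO mean in C1 and 0.023 above it in C0. With the length trend removed the log2 fold change of H2AFZ was 0.18 (edgeR adjusted p = 0.0536).

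H2AFV was at 268 CPM in V0, 273 in V1, 260 in C0 and 271 in C1, so that the groups overlapped. Its log2 fold change was −0.027 (SE 0.065, edgeR adjusted p = 0.915), and the 95% interval of the change was −10.5% to 7.73%. Per transcript length (FPKM, the authors' measure of fragments relative to transcript length and depth), H2AFZ stood 5.96-fold above H2AFV in V0 and 5.34-fold in V1, against 6.19-fold in C0 and 7.09-fold in C1. The log2 ratio was thus higher in clofarabine by 0.23, with no overlap between groups. An exact two-sided permutation test gave p = 0.33, the smallest p this test can give for 2 libraries against 2.

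Of the macroH2A genes, one was abundant and the other nearly absent from the counts. H2AFY, which encodes macroH2A1, stood at 296 CPM in V0, 303 in V1, 305 in C0 and 298 in C1, with the groups overlapping. Its log2 fold change was 0.0099 (SE 0.064, edgeR adjusted p = 0.973), with a 95% interval of −8.19% to 10.4% of change. H2AFY2, which encodes macroH2A2, had 1 fragment in V0, 2 in V1, 3 in C0 and 4 in C1 and was not tested. These counts are at or near the floor of 3 fragments, so no fold is given. H2AFJ, which encodes H2A.J, a variant that accumulates in senescent cells, is listed at 0 fragments in all 4 libraries. A count of 0 allows up to 3 fragments, or between 0.130 and 0.353 CPM depending on the library. None of the 50-base stretches of the H2AFJ transcripts in GENCODE 29 occurs in another gene's transcript, and whether its fragments were assigned elsewhere was not tested.

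The H3.3 genes H3F3A and H3F3B encode the same protein from transcripts that differ. H3F3B stood at 549 CPM in V0, 555 in V1, 555 in C0 and 570 in C1. The clofarabine libraries were both above the DMSO ones, C0 by less than the spread within either group, and the log2 fold change was 0.029 (SE 0.065, edgeR adjusted p = 0.909). The 95% interval of the change was −7.12% to 12.1%.

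H3F3A cannot be read from its own row. The table gives it 0.0241 fragments in V0, 49.3 in V1, 171 in C0 and 0.0245 in C1. In each group 1 library is near 0 and the other is not. The processed pseudogene H3F3AP4 holds 11664 fragments in V0, 15681 in V1, 19274 in C0 and 32556 in C1. In GENCODE 29, all 362 distinct 50-base stretches of the H3F3AP4 transcript also occur in H3F3A transcripts (100%). Fragments from that part of the mRNA therefore cannot be told apart by sequence. Of the 3092 distinct stretches of H3F3A in GENCODE 29, 11.7% occur in H3F3AP4. The annotation behind the counts is not known, so the share between the transcripts as counted may differ from this. Why the H3F3A row is near 0 in V0 and C1 was not tested. The fitted log2 fold change of H3F3A itself was 1.30 with an SE of 0.98 (edgeR adjusted p = 0.618). It was −8.07 without C0, 2.41 without C1, 0.41 without V0 and 9.47 without V1. Summed, the pair stood at 1373 CPM in V0, 1403 in V1, 1466 in C0 and 1409 in C1, and the log2 fold change was 0.050 (SE 0.071, edgeR adjusted p = 0.832, 95% interval −0.098 to 0.20). This sum was chosen after seeing the data. With H3F3AP4 added, the share of all fragments held by the variants was 0.353% in V0 and 0.355% in V1, against 0.358% in C0 and 0.353% in C1.

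**Figure D3:**
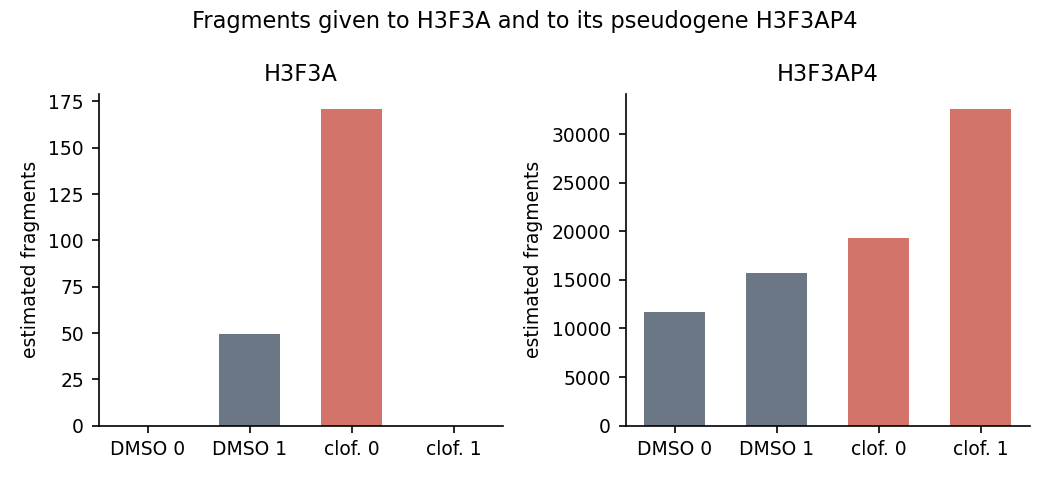
Estimated fragments (y axes from 0, on different scales) given to H3F3A and to its processed pseudogene H3F3AP4 in each library, not scaled for depth. H3F3A holds 171 fragments in C0 and 49.3 in V1 but under 1 in C1 and V0, while H3F3AP4 holds between 11664 and 32556 in all 4 libraries.

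The order of the levels of H2AFZ, H3F3B, H2AFY, H2AFV, H2AFX, H1FX and H2AFY2 was the same in all 4 libraries. On the FPKM scale, which allows genes to be set side by side, H2AFZ was highest, at 904 ± 39.6 in DMSO and 1073 ± 136 in clofarabine (SD, n = 2). H3F3B followed at 215 ± 0.968 and 219 ± 3.81, then H2AFY at 170 ± 3.04 and 171 ± 2.81 and H2AFV at 160 ± 5.33 and 161 ± 5.14. H2AFX came next at 129 ± 7.87 and 102 ± 4.07, and H1FX at 84.5 ± 11.8 and 51.1 ± 2.57. H2AFY and H2AFV were the closest neighbours, between 168 and 173 FPKM and between 156 and 165, and their ranges did not meet in either group. H2AFY2 was at 0.0582 to 0.111 FPKM. The row of H3F3AP4, at 1596 to 1685 FPKM, stood above the row of every member. Its fragments may come from H3F3A mRNA, as described above, so the place of H3F3A in this order is not known. In the transcripts of GENCODE 29, H3F3A shares 11.7% of its distinct 50-base stretches with another gene. The other members described share between 0% and 4%, the most in H3F3B. In GENCODE 29 a gene on the opposite strand overlaps H2AFZ, H2AFY, H2AFY2, H3F3A, H3F3B and H1FX, and the values of these members may include its fragments, since the strand setting of the counting is not known.

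**Figure D4:**
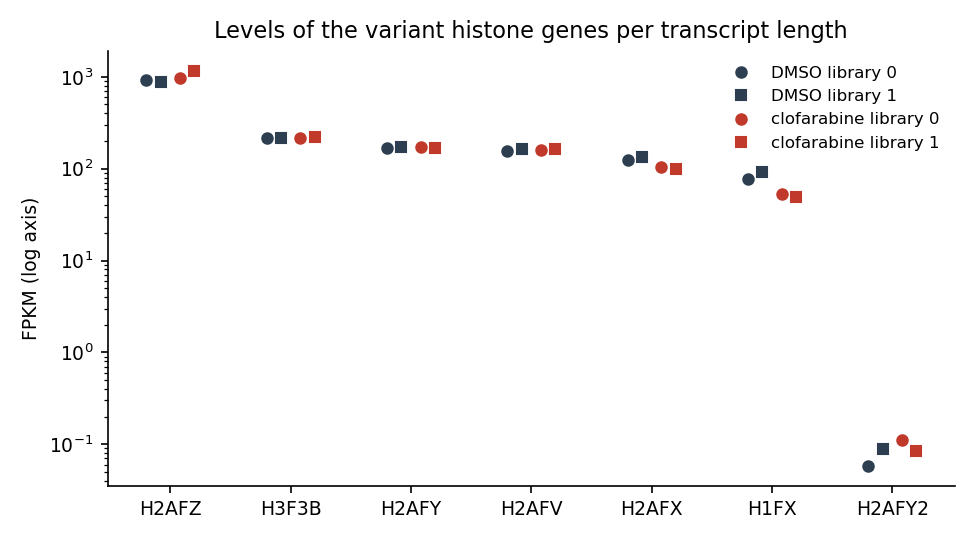
FPKM (y axis, log scale) of the 7 members with whole fragments in every library, with a point for each library. H2AFZ lies highest (876 to 1169), H2AFY2 lies lowest (0.0582 to 0.111), and the clofarabine points of H2AFX and H1FX lie below their DMSO points.

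Groups of the members did not overlap in 4 of the 7 tested (H1FX, H2AFX, H2AFZ and H3F3B), where 43.2% of all tested genes had no overlap. Under the alternative settings the reported directions of H1FX, H2AFX and H2AFZ did not reverse. The lowest and highest log2 fold changes were −0.87 and −0.58 for H1FX, −0.41 and −0.28 for H2AFX, and 0.11 and 0.37 for H2AFZ.

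**Figure D5:**
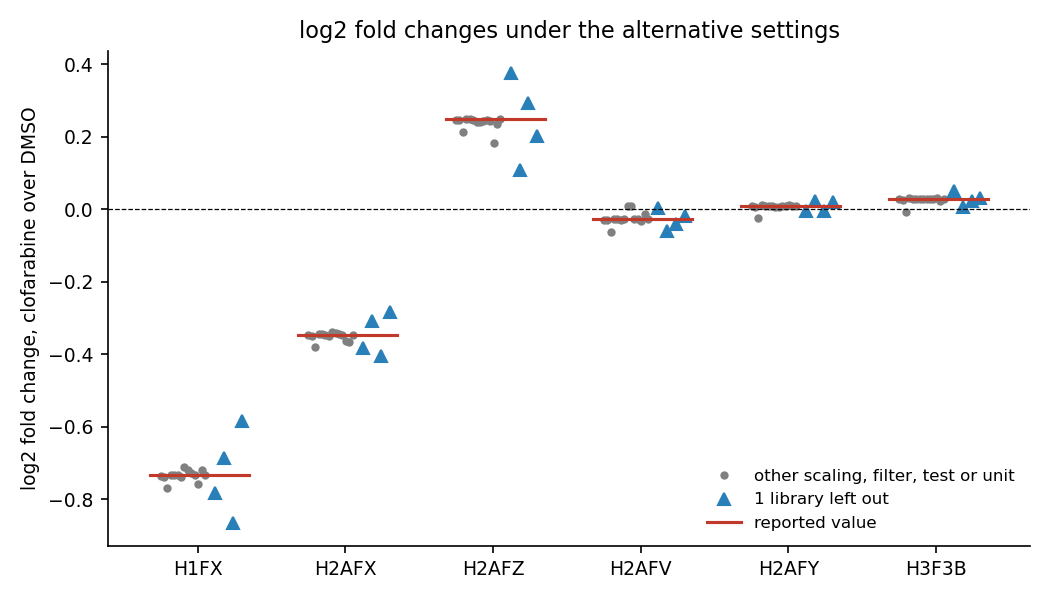
log2 fold changes (y axis) of 6 variant histone genes under the alternative settings, with a red line at the reported value, triangles for fits with 1 library left out and grey points for other scalings, filters, tests or units. H1FX and H2AFX lie below 0 and H2AFZ above 0 at every point, while H2AFV, H2AFY and H3F3B lie on both sides of 0.

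The genes of proteins that place, modify and read the variants were followed in 4 lists. By edgeR, 1.54% of all tested genes were called higher and 1.03% lower. Of the 7 genes of H3.3 deposition and the 12 of H2A.Z exchange, 0 were called by edgeR, DESeq2 or limma-voom, and 0 had an unadjusted p under 0.05. The smallest p-values belonged to DAXX, the chaperone that works with ATRX at telomeres and heterochromatin (0.12 on the log2 scale, SE 0.069, edgeR adjusted p = 0.474), and INO80, a remodelling ATPase (−0.18, SE 0.088, edgeR adjusted p = 0.365). Medians were 0.050 and −0.014. Of 10 genes listed for H2A.X phosphorylation, its removal and the response to it, 0 were called by any of these tools. Of these 10, 1 had an unadjusted p under 0.05. It was RNF168, a ubiquitin ligase that acts on H2A at breaks (0.21, SE 0.083, edgeR adjusted p = 0.242).

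Among 13 other histone chaperones 2 were called higher and 0 lower, where 1.54% of all tested genes were called higher and 1.03% lower. Of the 13, 12 had a positive log2 fold change (median 0.11), as had 5948 of all 11761 tested genes. The count of rises was 4 without C0, 1 without C1, 0 without V0 or V1, 0 on either FPKM scale, and 1 with DESeq2, with upper-quartile scaling, with library sizes alone or at equal depth. CHAF1B and CHAF1A, subunits of the chromatin assembly factor CAF-1, which places new H3 and H4 behind replication forks, were the 2 that rose. CHAF1B was at 96.0 CPM in V0 and 93.2 in V1, against 116 in C0 and 119 in C1 (log2 fold change 0.31, SE 0.073, edgeR adjusted p = 0.0216). CHAF1A was at 109 CPM in V0 and 110.4 in V1, against 130 in C0 and 136 in C1 (0.28, SE 0.071, edgeR adjusted p = 0.0355). Clofarabine libraries were above DMSO libraries in both genes. The call of CHAF1B was lost without V0 (edgeR adjusted p = 0.0765) and without V1 (0.332), and with log2(FPKM + 1) (limma adjusted p = 0.104) and log2(FPKM + 0.1) (0.0999). That of CHAF1A was lost without C1 (edgeR adjusted p = 0.102), V0 (0.197) or V1 (0.317), with upper-quartile scaling (0.0543), library sizes alone (0.0667) or equal depth (0.0666), with DESeq2 (adjusted p = 0.0767), and with log2(FPKM + 1) (limma adjusted p = 0.160) and log2(FPKM + 0.1) (0.154). Neither was called at a threshold of 0.01. Over all alternatives the log2 fold change was between 0.28 and 0.33 for CHAF1B and between 0.24 and 0.31 for CHAF1A.

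The replication-dependent histones were set beside the variants. Of the 35 replication-dependent genes tested of 69 in the table, 4 were called lower and 0 higher by edgeR. Shares over all tested genes were 1.03% lower and 1.54% higher. Of the 35, 27 were negative, with a median of −0.24. Over all 11761 tested genes 5813 were negative. The count of falls was 7 without C1, 7 with the replicate number as a block, 10 with the length trend removed and 2 with DESeq2, which gave no adjusted p for some of these genes. The 4 falls were spread over the core classes, 1 of 9 tested H2A genes, 1 of 14 H2B genes, 1 of 4 H3 genes and 1 of 4 H4 genes, with class medians between −0.27 and −0.17. HIST1H3D was at 16.7 CPM in V0 and 16.9 in V1, against 4.60 in C0 and 5.97 in C1 (log2 fold change −1.64, SE 0.18, edgeR adjusted p = 4.4e-06). HIST1H4C was at 16.2 CPM in V0 and 10.6 in V1, against 3.54 in C0 and 4.50 in C1 (−1.69, SE 0.23, edgeR adjusted p = 7.9e-05). HIST1H4C had between 47 and 138 fragments per library. How fully the libraries captured mRNAs without a poly(A) tail was not tested, so these values may not give the level of the S phase mRNAs. A difference between the variants and these genes as lists was not tested. Of 12 tissue-restricted histone variants, mostly of testis and oocyte, 11 were in the table, 6 of them at 0 in all libraries, and 0 passed the filter.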

How the data were processed

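The members and gene lists were chosen with earlier results of these data known. Per the labels' protocols, directional libraries were built from total RNA using a NEBNext kit. The submitters' processing notes name Cuffdiff 2.2.1, TopHat2 2.0.13 and cutadapt 1.5, and the build hg19. No source used here gives the annotation or the strand setting, so opposite-strand genes may share fragments. Estimated counts per gene and library were deposited by the authors. Per the file headers it also holds scaled fragments, a signal equal to the counts times 1 factor per library, and FPKM. Libraries are named by the table's letter and number, which the labels do not tie to their replicates. Libraries of a group differed beyond sampling noise (chi-square per degree of freedom 6.55 and 2.73) and none were combined.

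Estimated counts were rounded, filtered with edgeR's filterByExpr (minimum count 10; 11761 genes kept), scaled by TMM (factors 0.968 to 1.02) and compared by the quasi-likelihood test of edgeR 4.0.16 under R 4.3.3, on group alone, with Benjamini-Hochberg adjustment over all tested genes. Standard errors are the log2 fold change over the square root of F, and 95% intervals use the test's degrees of freedom. Ratios used log2(FPKM + 0.1). The script was tested on simulated counts. Alternatives were 4 scalings or inputs, 2 filters, DESeq2 1.42.0, limma 3.58.1 (voom, log2(FPKM + 1) and log2(FPKM + 0.1)), each library left out, the replicate block, removal of a trend on transcript length (loess, span 0.3), thinning to 8370550 fragments, and thresholds of 0.01 and 0.1. The members described are named with every library. From each list, up to 2 called genes per direction by smallest p are named, or the gene of smallest p. No ratio of H3F3A to H3F3B or H2AFY to H2AFY2 is given, for want of fragments. One member and one marker gene are not reported here. Current symbols of the 9 members described were found through RefSeq's synonyms. Floors cover counting error only.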

Additional observations from a re-analysis of the deposited data

How the results depend on the processing

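With 2 libraries a group, leaving out 1 leaves a group with a single sample, assumed to vary like the other group. Members called lower (2) numbered 1 with log2(FPKM + 1) and with log2(FPKM + 0.1), and between 1 and 3 with a library left out; the 1 was H1FX. Members called higher (0) numbered 2 with no filter (H2AFZ and H3F3A) and between 0 and 1 with a library left out. H2AFV reversed to 0.0098 with log2(FPKM + 1) and 0.0099 with log2(FPKM + 0.1), and ranged from −0.060 to 0.0027 (without C0) with a library left out. H2AFY reversed to −0.025 with library sizes alone and ranged from −0.0059 (without V0; −0.0042 without C0) to 0.022, and H3F3B to −0.0062 with library sizes alone. H3F3A reversed to −1.15 with limma-voom and ranged from −8.07 (without C0) to 9.47 (without V1). The cause of these shifts was not tested. Over all genes, higher and lower calls (181 and 121) ranged from 57 to 454 and from 73 to 182 with a library left out. Higher calls were 110 with upper-quartile scaling and 298 with no filter, and lower calls 200 with library sizes alone. The pair was 96 and 75 with DESeq2, 19 and 37 with log2(FPKM + 1), 27 and 45 with log2(FPKM + 0.1), 287 and 199 with the length trend removed, 58 and 70 at a threshold of 0.01, and 283 and 183 at 0.1.

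The replicate number of the table as a block called 494 genes higher and 302 lower, and 1 member higher (H2AFZ, adjusted p = 0.00323). Deviations of libraries with the same number correlated at −0.0038 across genes, and the labels give no shared batch. Whether libraries with the same number shared a culture or a preparation is not known.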
